A study of Mus musculus with 9 samples.

Results

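The untreated LIF/serum cultures are the 3 libraries taken at 0 h, before any doxycycline (dox), out of 9 libraries in the series. They were chosen by their labels alone, as the libraries titled 0 h and marked as untreated. The cells are a mouse embryonic stem cell (ESC) line that carries a dox-inducible transgene for a forced homodimer of E2A, the helix-loop-helix transcription factor encoded by Tcf3. The transgene joins FLAG-tagged mouse E47, a splice form of E2A, to another E47 by a linker. It was placed upstream of Hprt by cassette exchange in 1 engineered line, and the study's wild-type ESCs were E14tg2α. All 3 groups of the series carry the transgene, so the untreated group is a transgenic line without inducer and not a line without the transgene. The other groups, of 3 libraries each, received dox at 1 µg/ml for 18 h or 24 h. The labels' protocol text speaks of 24 h and 48 h, whereas the titles give 18 h and 24 h. Libraries sharing a replicate number are called culture 1, 2 and 3 below, and nothing in the labels says that a number marks 1 culture followed through time. The study calls the replicates biological. Its supplement shows PCR measurements over the hours of induction from 3 biological experiments, and says that these went on to RNA sequencing. It does not tie the replicate numbers to those experiments.

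ESCs keep the identity of the early epiblast through a network of transcription factors around Pou5f1 (Oct4), Sox2 and Nanog. Leukaemia inhibitory factor (LIF) acts through STAT3, and serum supplies BMP signals that induce Id proteins, the inhibitors of E2A. Under these conditions the cells are known to be uneven, with naive genes such as Esrrb, Zfp42 and Dppa3 fluctuating from cell to cell. Amino acid supply and stress on the endoplasmic reticulum act on a separate programme, in which the transcription factor ATF4 induces genes of amino acid synthesis and transport.

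Between 22028363 and 24571958 reads fell on genes in each untreated library. The expression unit is FPKM, fragments per length of exon and number of reads mapped, which allows levels to be compared between genes. Of 47729 genes listed, 11800 (24.7%) had a mean FPKM of at least 1 over the 3 cultures, and 10794 of these were protein-coding. There were 527 genes at a mean FPKM of 100 or more, and they held 51.7% of the summed FPKM. A further 23037 genes were listed at 0 in all 3 libraries. Pearson's r of log2(FPKM+0.1) between pairs of cultures, across genes, lay between 0.982 and 0.984. As a check for 1 library used more than once, the chi-square of the reads per degree of freedom between pairs was 13.4 to 16.2, so the values were neither identical nor alike within counting noise.

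The markers of ESCs were all high. Pou5f1, the central pluripotency factor (chr17:35506018-35510772, GRCm38, GENCODE M21, plus strand, 6 merged exons), had an FPKM of 433, 336 and 346 in cultures 1, 2 and 3, or 371±53.3 (mean±s.d., n=3). The adhesion protein E-cadherin, Cdh1 (chr8:106603351-106670246), had 214, 228 and 244 FPKM, or 229±15.1. The Nodal co-receptor Cripto, Tdgf1 (chr9:110939603-110946158), had 144, 126 and 121 FPKM, or 131±12.1. These ranked 115th, 204th and 386th of all genes by mean FPKM, so the markers were present in each culture. On a sex check, Xist was listed at a mean FPKM of 0.0016 and the Y-linked Eif2s3y at 23.1, as in a male line.

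**Figure D1:**
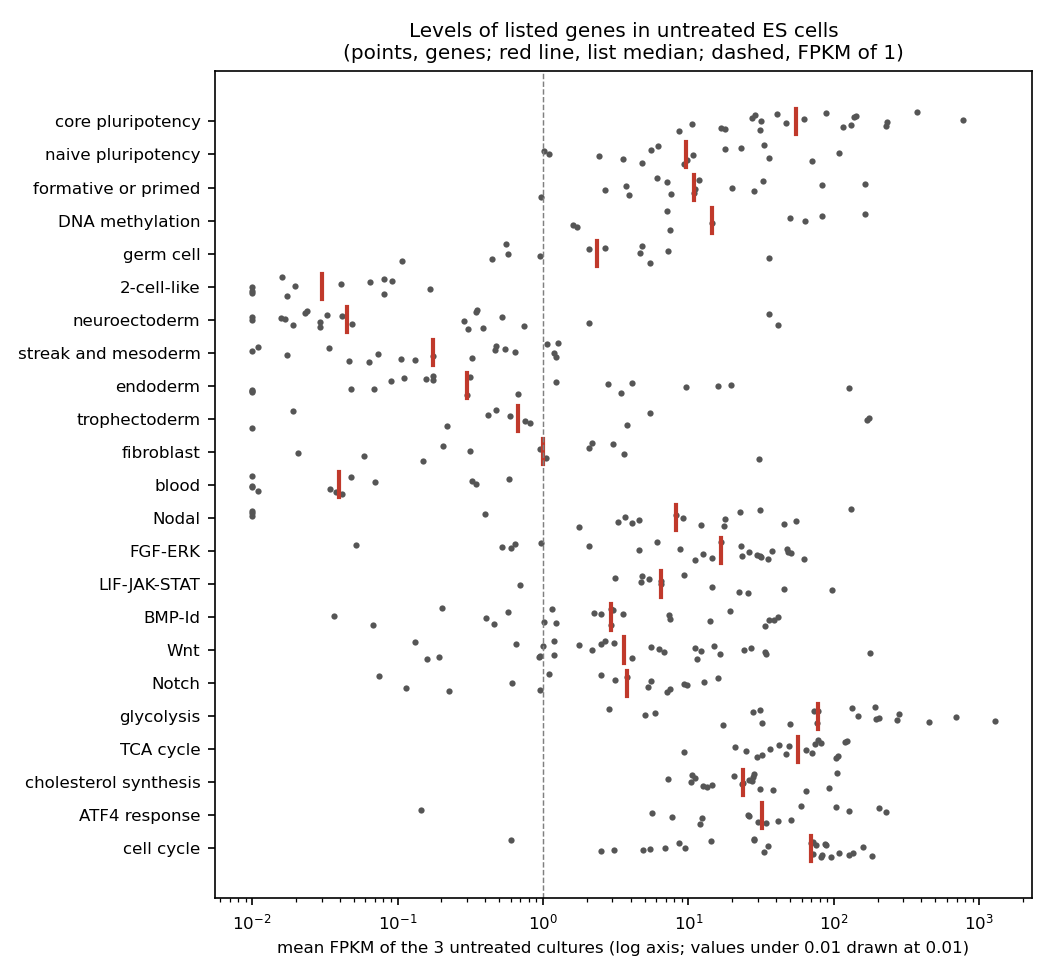
Mean FPKM over the 3 untreated cultures (log axis) of every gene in 23 of the gene lists, with a row per list, a point per gene and a red line at the list median. Core pluripotency genes (median 55.0) and glycolysis genes (median 78.1) sit to the right, and 2-cell-like, neuroectoderm and blood genes mostly lie under an FPKM of 1 (dashed line).

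All 20 genes of the core pluripotency list had a mean FPKM of at least 1, and 8 were at 100 or more, against 24.7% and 527 of all genes listed. Of the 22048 protein-coding genes listed, 10794 were at 1 or more and 503 at 100 or more. Dppa5a, an RNA-binding protein of pluripotent cells, was the highest at 1069, 623 and 641 FPKM. It was higher in culture 1 than in the others, which lay close together. Sox2, the partner of Oct4, stood at 88.9±8.71 FPKM and Nanog at 40.6±5.51. The lowest members were Eras, a Ras-like protein of ESCs (11.6, 11.6 and 8.80 FPKM), and Foxd3, a forkhead factor (10.5, 8.75 and 6.63 FPKM). The median log2 range of the list (highest minus lowest culture) was 0.35, somewhat above the 0.26 over the 11800 genes, and no member was 2-fold apart. The RNA-binding protein Trim71 hardly moved, at 31.6, 31.7 and 31.6 FPKM.

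Naive pluripotency genes were lower than the core genes, with a median of 9.61 FPKM, and all 16 were above 1. Zfp42 (Rex1) was the highest at 151, 80.9 and 94.6 FPKM, followed by the F-box gene Fbxo15 at 95.1, 56.4 and 60.1. Both were clearly higher in culture 1 than in cultures 2 and 3. The lowest were Prdm14, which represses primed genes (1.6, 0.764 and 0.933 FPKM), and Tbx3 (1.51, 0.717 and 0.833 FPKM). Genes of the formative or primed state were also present, and 14 of 15 passed 1 FPKM. The de novo DNA methyltransferase Dnmt3b reached 163±13.7 FPKM and its cofactor Dnmt3l 104, 75.8 and 69.6. Otx2, a transcription factor of the formative epiblast, had 13.7, 10.2 and 11.3 FPKM. Fgf5, the classic marker of the primed epiblast, was low, at 3.60, 7.73 and 7.01 FPKM, with culture 1 below the others. The maintenance methyltransferase Dnmt1 stayed near 50 FPKM in each culture (50.6, 50.2 and 49.0), and Tet1, which oxidises methylcytosine, had 17.3, 14.1 and 11.9.

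Many lineage regulators were near or below 1 FPKM. The share of genes above 1 FPKM was 13.6% in the neuroectoderm list and 21.1% in the streak and mesoderm list. It was 38.1% in the endoderm list and 33.3% in the trophectoderm list, beside 24.7% of all genes. Many of the genes listed are not protein-coding. Of the 22048 protein-coding genes 10794 passed 1 FPKM, a higher share than in any of these lineage lists. In the neuroectoderm list 3 of 22 genes passed 1 FPKM, and they were the tubulin Tubb3 (48.8, 36.3 and 39.5), the intermediate filament Nes (28.6, 42.8 and 36.7) and Neurod1 (2.33, 2.38 and 1.47). Sox1, the earliest neuroectoderm marker, had 0.208, 0.293 and 0.552 FPKM, and the forkhead factor Foxd4 was listed at 0 in cultures 1 and 3 and at 0.0711 in culture 2. Pax6 had 0.377, 0.349 and 0.315 FPKM. The proneural factors Neurog1 and Neurog2 did not exceed 0.0253 FPKM in any culture. In bulk RNA a low level in every cell cannot be told apart from a higher level in a few cells.

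In the primitive streak and mesoderm list 4 of 19 genes passed 1 FPKM. T (Brachyury), which marks the streak, had 0.761, 1.35 and 1.71 FPKM, and Wnt3, the ligand that induces the streak, had 0.532, 1.57 and 1.5. Both were lowest in culture 1. Eomes, another streak factor, had 0.938, 1.16 and 1.11 FPKM, while the presomitic factor Msgn1 was listed at 0 in all 3. In the endoderm list 8 of 21 genes passed 1 FPKM, and most of the abundant ones encode matrix proteins, namely Sparc (102, 139 and 140), Lamb1 (18.6, 19.6 and 20.5) and Col4a1 (15, 16.2 and 16.6). Among the transcription factors of the list, Hhex (3.1, 3.89 and 3.33) and Foxa3 (1.17, 1.0 and 1.51) passed 1 FPKM on average, Gata4 and Gata6 had at most 0.258 and 0.331 FPKM, and the plasma protein gene Ttr was listed at 0 throughout. In the trophectoderm list 4 of 12 genes passed 1 FPKM. These were the keratins Krt8 (175±13.8) and Krt18 (170±14.6) and the transcription factors Tfap2c (6.75, 4.54 and 5.06) and Tead4 (3.96, 3.47 and 3.94). The lineage factor Cdx2 had 0.241, 0.516 and 0.671 FPKM and Elf5 at most 0.0357.

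None of 12 2-cell-like genes and none of 12 blood genes reached a mean of 1 FPKM. The sums over the 2-cell-like list were 0.931, 0.425 and 0.375 FPKM in cultures 1, 2 and 3, although Zscan4 and Tcstv genes belong to families of near-identical copies whose reads the counting may have left out or split. The blood list summed to 2.16, 1.31 and 1.05 FPKM, with the pan-leukocyte gene Ptprc at no more than 0.0159. The fibroblast list, which covers feeder cells, had 6 of 12 genes above 1 FPKM and summed to 28.3, 45.0 and 59.0. The study describes ESC culture on gelatinised flasks and mentions no feeder cells. The actin Acta2 supplied most of that sum (19.6, 30.3 and 41.5 FPKM), while Dcn, Col1a2, Col1a1, Thy1 and Fbn1 had means between 1.04 (Fbn1) and 3.61 (Dcn). The matrix genes Col3a1, Postn and Lum did not exceed 0.248. The germ cell list had 7 of 12 genes above 1 FPKM, led by Tex19.1, a germline gene also known in pluripotent cells, at 48.4, 33.0 and 25.7.

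Among signalling pathways, most genes of the Nodal pathway were expressed. Nodal itself had 23.0, 24.0 and 21.0 FPKM, its antagonist and target Lefty1 43.8, 49.6 and 42.4, and the pathway's nuclear partner Foxh1 55, 53 and 55.9. Of 19 Nodal pathway genes, 15 passed 1 FPKM. The type II and type I receptors Acvr2b and Acvr1b had 9.64, 8.39 and 9.63 and 8.22, 7.21 and 9.33 FPKM. The co-receptor Cfc1, the paralogue of Tdgf1, stayed under 1 in every culture (0.685, 0.160 and 0.354). The ligand Gdf1 was listed at 0 in all 3 libraries, and the receptor Acvr1c did not exceed 0.00495.

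Of 25 FGF-ERK genes, 20 passed 1 FPKM. The ligand Fgf4, which drives ERK signalling in ESCs, had 22.4, 13.0 and 14.9 FPKM and was highest in culture 1. Among the receptors, Fgfr1 was the most abundant at 18.9, 22.7 and 27.4 FPKM, with Fgfr2 at 2.27, 1.89 and 2.10 and Fgfr3 and Fgfr4 under 1. The ERK targets Etv5 (72.6, 60.1 and 55.7), Dusp6 (31.3, 28.9 and 34.8) and Spry4 (26.3, 23.3 and 20.2) were abundant in each culture. Fgf2 stayed at no more than 0.0746 FPKM.

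In the LIF pathway 12 of 13 genes passed 1 FPKM. The receptor subunits Lifr (4.01, 2.75 and 2.59) and Il6st, or gp130 (5.71, 4.70 and 5.65), were low, and the transducer Stat3 had 9.70, 9.42 and 9.05 FPKM. The STAT3 target and feedback inhibitor Socs3 was steady at 15, 14 and 14.9 FPKM. Of 23 BMP and Id genes, 17 passed 1 FPKM. The type I receptor Bmpr1a had 17.9, 20.6 and 19.8 FPKM, more than the type II receptor Bmpr2 at 1.98, 2.42 and 2.30. Id1, Id2 and Id3, which block E proteins, had 33.5, 48.8 and 25.2, then 38.9, 49.4 and 27.8, then 11.6, 18.8 and 11.9 FPKM, each highest in culture 2. Id4 was lower than the other Id genes, at 1.24, 1.21 and 0.610.

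The E proteins differed widely in level. Tcf3, which encodes E2A, had 41.2, 37.7 and 38.5 FPKM, Tcf12 (HEB) 2.83, 3.32 and 3.46, and Tcf4 (E2-2) 1.57, 1.83 and 1.51. Reads from the transgene cannot be told from those of endogenous Tcf3 in these values. Of 28 Wnt genes, 21 passed 1 FPKM, among them β-catenin, Ctnnb1 (174, 176 and 183), the effector Tcf7l1 (17.9, 15.2 and 16.1) and the feedback target Axin2 (2.03, 2.38 and 2.10). The 2 that were at least 2-fold apart between cultures were Wnt3, given above, and the secreted Wnt inhibitor Notum, at 6.48, 3.63 and 2.10 FPKM. This is beside 3.45% of all genes, and the count was 0 without culture 1, 2 without culture 2 and 1 without culture 3. Of 17 Notch genes, 12 passed 1 FPKM, with Notch3 the highest receptor at 12.4, 13.0 and 12.9 and the neural target Hes5 at no more than 0.153.

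The most abundant genes belonged to translation and mitochondria. Among genes with at least 200 nt of exons, mt-Co1, a subunit of cytochrome c oxidase, was the highest at 5768, 5159 and 5723 FPKM, and the elongation factor Eef1a1 was second at 4676, 4013 and 4820. The 15 highest also held mt-Nd1, mt-Cytb, the ribosomal protein genes Rplp1, Rps12, Rpl8, Rpl4, Rpl13a, Rps26, Rps15 and Rpl17, the elongation factor Eef2, the chaperone Hsp90ab1 and the nucleolar protein Npm1. Protein-coding genes named Rpl or Rps, 109 in all, made up 15.4%, 14.1% and 14.8% of the summed FPKM. Handling of reads with several alignments is not given in the sources used here, so levels of genes with near-identical copies, such as these and Dppa5a, are uncertain.

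The 13 mitochondrial protein-coding genes fell into separate groups. Those named above, mt-Nd2, mt-Nd4, mt-Nd5 and mt-Nd6 had a mean FPKM between 127 (mt-Nd6) and 5550 (mt-Co1). The 6 genes that lie next to each other from mt-Co2 (chrM:7013-7696) to mt-Nd4l (chrM:9877-10173), which include mt-Atp8, mt-Atp6, mt-Co3 and mt-Nd3, were listed at a mean FPKM between 0.128 (mt-Co3) and 0.536 (mt-Co2). Annotated mitochondrial-like pseudogenes on chromosome 1, such as Gm28438 (2.96±0.724 FPKM) and Gm29216 (2.08±0.239 FPKM), were also low. The part of read assignment in these low values was not tested, and the 6 genes should be read as listed low and not as silent.

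Central metabolism was expressed throughout. All 21 glycolysis genes passed 1 FPKM and 10 passed 100. The pyruvate kinase Pkm had 1291, 1365 and 1186 FPKM, Gapdh 675, 728 and 664, and lactate dehydrogenase Ldha 480, 498 and 380. Hk2 (29.4, 32.5 and 31.2) was the more abundant hexokinase, with Hk1 at 2.80, 2.60 and 3.10. All 18 genes of pyruvate oxidation and the tricarboxylic acid (TCA) cycle passed 1 FPKM, led by Pdhb (138, 108 and 125) and citrate synthase, Cs (119, 120 and 119). This list was among the most even, with a median log2 range of 0.12. Tdh, the threonine dehydrogenase on which mouse ESCs depend, had 58.0, 35.6 and 32.5 FPKM, and its partner in glycine production Gcat 19.2, 13.2 and 15.3. The glycine cleavage enzyme Gldc was higher still at 134, 100 and 102.

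Of 27 cell cycle genes, 26 passed 1 FPKM, and their median log2 range was 0.21, beside 0.26 over all genes. The replicative helicase subunit Mcm5 had 185, 178 and 186 FPKM, Cdk1 76.1, 77.3 and 71.9, and cyclin A2 (Ccna2) 70.1, 73.3 and 65.2. Ccne1 (70.8, 84.1 and 59.3) exceeded all of the D cyclins, of which Ccnd1 had 30.1, 31.4 and 22.9 and Ccnd2 at most 0.689. The p53 gene Trp53 had 107, 109 and 102 FPKM, and its target Cdkn1a (p21) 25.6, 23.4 and 35.2.

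The cultures were then compared with each other. Each is 1 library, so a difference between cultures has no replicate of its own in the untreated group and no test between cultures was possible beyond one against counting noise, which 64.8% of 11788 genes with recovered reads exceeded. Across the 11800 genes, 407 (3.45%) were at least 2-fold apart between the highest and lowest culture on log2(FPKM+0.1), which understates the fold of low genes. Of these, 235 were highest in culture 1, 58 in culture 2 and 114 in culture 3. Short and thinly read genes made up much of this number, with 121 under 200 nt of exons and 184 under 100 reads over the 3 libraries. Restricted to genes with at least 200 nt and 100 reads, 214 remained, of which 192 were protein-coding. Median log2 deviations by chromosome stayed within 0.07 of 0 for each autosome and the X chromosome in each culture, the largest being 0.07 for chromosome 8 in culture 3.

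**Figure D2:**
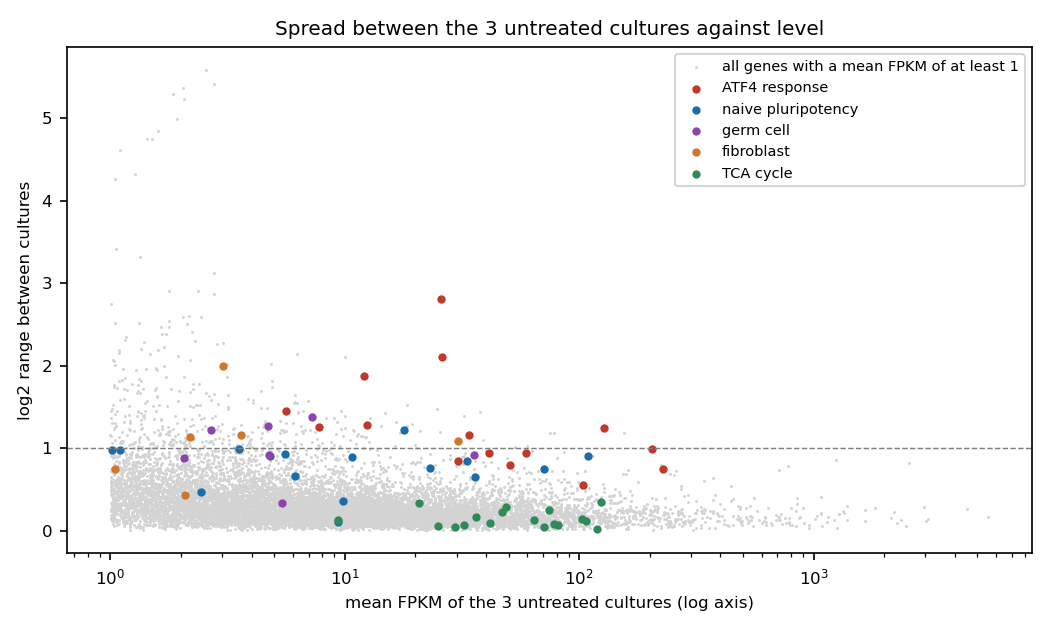
Log2 range between the 3 untreated cultures against mean FPKM (log axis) for 11800 genes whose mean FPKM was 1 or more, with 5 gene lists in colour and the 2-fold limit dashed. ATF4 response genes reach a log2 range of 2.80 (Chac1) and TCA cycle genes stay at 0.35 or below.

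The widest range among these 214 genes was that of Chac1, an enzyme that degrades glutathione and a known target of the ATF4 and CHOP arm of the stress response. It had 35.4, 5.17 and 36.7 FPKM, from 1383, 203 and 1305 reads, a log2 range of 2.80. Without culture 2 its range fell to 0.05. Trib3, a pseudokinase induced by the same factors, had 32.5, 8.59 and 37.1 FPKM and a log2 range of 2.10, which fell to 0.19 without culture 2. Pck2, which makes phosphoenolpyruvate in mitochondria, followed the same pattern at 14.6, 4.52 and 16.9 FPKM, with a range of 1.88 and of 0.21 without culture 2. Culture 2 was therefore low and the other cultures nearly alike for all 3 genes.

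Of the 20 widest genes, 16 were lowest in culture 2 and none was highest there, beside 31.9% and 33.9% of all genes. Over the 214 genes from which they come the order was more mixed, with 52 lowest in culture 1, 92 in culture 2 and 70 in culture 3. At lower levels these included Fut1, a fucosyltransferase (2.79, 0.549 and 3.33 FPKM), Nupr1, a stress-induced nuclear protein (4.72, 0.895 and 3.44), and Adm2, a peptide hormone (2.53, 0.479 and 1.76). The lipoprotein receptor Vldlr (2.29, 0.757 and 3.49), Gch1, which starts tetrahydrobiopterin synthesis (1.16, 0.315 and 1.62), and Gdf15, a stress-induced cytokine (1.86, 0.472 and 1.39), were of the same kind. So were the bZIP factor Jdp2 (4.72, 2.24 and 7.68), the glycine transporter Slc6a9 (3.52, 1.41 and 4.61), the class I histocompatibility locus H2-Bl, annotated as a polymorphic pseudogene (6.03, 2.95 and 9.41), the germ cell gene Tex14 (2.33, 0.648 and 1.65) and Ubap1l (2.10, 0.513 and 1.36). Ly6g6e (5.99, 1.57 and 1.84) was lowest in culture 2 as well, but culture 1 alone stood apart, and its log2 range was 0.22 without culture 1 and 1.65 without culture 2. The processed pseudogene Gm8756 (3.52, 0.897 and 1.73) had all 3 cultures apart, with a range of 0.88 without culture 1 and 0.98 without culture 2. H2-Bl has close relatives among the class I genes and Gm8756 is a copy of another gene, so their levels are uncertain.

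The other 4 had a different order. The collagen chain Col1a2 (1.17, 2.89 and 4.97 FPKM) and the steroid dehydrogenase Akr1c18 (0.660, 1.97 and 3.20) were lowest in culture 1. The protease inhibitor Spink1 (6.56, 4.64 and 1.96) and the long non-coding RNA gene Gm42434 (4.48, 1.85 and 1.34) were lowest in culture 3 and highest in culture 1.

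**Figure D3:**
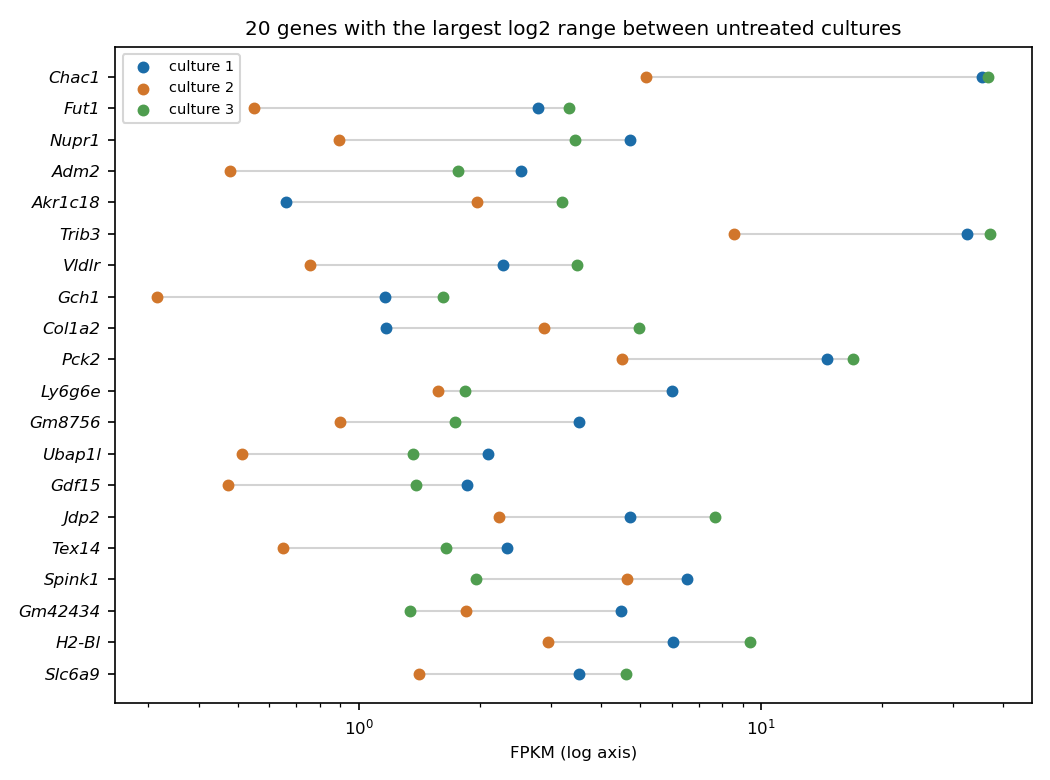
FPKM (log axis) in each untreated culture of 20 genes, with the widest log2 range at the top and 1 point per culture. They have the largest ranges among the 214 2-fold genes with at least 200 nt of exons and 100 reads. Culture 2 is the lowest point for 16 of the 20 genes.

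The ATF4 response list moved with the genes low in culture 2, and it holds Chac1, Trib3 and Pck2 itself. All 15 members with a mean FPKM of at least 1, of 16 listed, were lowest in culture 2, beside 31.9% of all 11800 genes, and 13 were highest in culture 3. Their median log2 deviations were 0.20, −0.66 and 0.48 in cultures 1, 2 and 3, against −0.01, 0.01 and 0.01 over all genes. Asparagine synthetase, Asns, had 138, 72.5 and 172 FPKM, and the CHOP gene Ddit3 had 6.61, 2.67 and 7.49. Atf4 itself had 267, 160 and 258 FPKM, with Psat1 of serine synthesis at 218, 131 and 262. The count of members at least 2-fold apart was 8, against 3.45% of all genes, and it stayed at 8 without culture 1, fell to 4 without culture 3 and to 0 without culture 2. The median log2 range of the list was 1.15, and 0.21 without culture 2.

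In the glutamine and amino acid list, 4 of 10 genes were lowest in culture 2 and 4 in culture 3, beside 31.9% and 31.4% of all genes. Slc7a5, the light chain of the large neutral amino acid transporter, had 164, 92.5 and 210 FPKM, and its partner Slc3a2 115, 76.0 and 125. The cystine transporter Slc7a11, the member of the list below 1 FPKM, was listed at 0.202, 0.0509 and 0.182 FPKM. The neutral amino acid transporter Slc38a2 was lowest in culture 3 instead, at 124, 113 and 105. In the threonine and one-carbon list, which shares Mthfd2, Phgdh and Psat1 with the ATF4 list, 8 of 17 genes were lowest in culture 2 and 8 in culture 3. Shmt2 (95.1, 55.6 and 108), Psph (14.1, 7.0 and 15.4) and Mthfd2 (67.6, 37.5 and 72.4) were lowest in culture 2. Other enzymes of folate metabolism were even, such as Mthfd1 (107, 115 and 102) and Tyms (14.7, 14.1 and 14.0). Vegfa, the angiogenic growth factor, had 8.42, 4.27 and 10.3 FPKM, whereas Ankrd37, a hypoxia target, was highest in culture 2 (1.05, 2.91 and 1.71).

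Because ATF4 acts with C/EBP factors on composite elements, promoters of these genes were searched for the letters TGATGNAA on either strand. The windows were RefSeq promoters on GRCm38.p6, from 250 bases before to 50 after a gene's start. The element was present in a window of 6 of the 15 ATF4 response genes that had an entry (40.0%), and of 6 of the 15 widest genes that had one (40.0%), beside 4.51% of all 27025 genes. Chac1, Trib3 and Pck2 stand in both counts, and the list was written from known targets of ATF4, so the counts are a description and not separate support. Each match is shown on the strand that reads TGATGNAA, in 30 bases with the element in capitals, so that the genes low in culture 2 can be compared.
Chac1: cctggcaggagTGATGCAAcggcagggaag
Trib3: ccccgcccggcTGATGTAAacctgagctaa
Pck2: ctgtaagatacTGATGTAActttgaaggct
Nupr1: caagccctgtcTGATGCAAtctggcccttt
Vldlr: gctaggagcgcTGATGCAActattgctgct
Jdp2: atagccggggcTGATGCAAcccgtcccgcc
Asns: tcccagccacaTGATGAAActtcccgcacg
Atf3: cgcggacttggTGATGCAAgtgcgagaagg
Slc7a11: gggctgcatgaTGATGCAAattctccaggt

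These stretches lie at chr2:119351038-119351067 (minus strand) for Chac1, chr2:152344028-152344057 (plus) for Trib3, chr14:55540152-55540181 (minus) for Pck2, chr7:126625562-126625591 (plus) for Nupr1 and chr19:27216809-27216838 (minus) for Vldlr. Those of Jdp2, Asns, Atf3 and Slc7a11 are chr12:85599372-85599401 (plus), chr6:7693214-7693243 (minus), chr1:191183425-191183454 (plus) and chr3:50443642-50443671 (plus). The elements began 193 bases before the start in Chac1, 103 in Pck2, 110 in Nupr1, 200 in Vldlr, 33 in Jdp2, 23 in Asns, 110 in Atf3 and 47 in Slc7a11, and in Trib3 it began 14 bases after the start. Slc7a11 held another copy, 66 bases before the start. Chac1, Nupr1, Vldlr, Jdp2, Atf3 and Slc7a11 share the letters TGATGCAA, and Trib3 and Pck2 share TGATGTAA. A match is a description of these letters, and genes without one, such as Atf4 and Ddit3, lack them only in these windows.

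Naive and germ cell genes were mostly highest in culture 1, and the 2 lists differed in which culture was most often lowest. Of the 16 naive genes, 15 were highest in culture 1, beside 30.3% of all genes, and 12 were lowest in culture 2. Median log2 deviations of the list were 0.44, −0.34 and −0.14 in cultures 1, 2 and 3. The nuclear receptor Esrrb, with 26.1, 11.1 and 16.2 FPKM, was the only member at least 2-fold apart on log2(FPKM+0.1), beside 3.45% of all genes. No member was without culture 1 or without culture 2. Without the pseudocount Tbx3, Prdm14 and Tcl1 also came to 2.10, 2.10 and 2.03-fold. Klf2 had 44.9, 29.7 and 24.9 FPKM, Klf4 7.93, 4.96 and 5.54, and Tfcp2l1, a target of LIF signalling, 7.13, 3.70 and 5.87. The exception was Gbx2, at 8.74, 11.3 and 9.46. The core list was also mostly highest in culture 1 (13 of 20 genes), to a smaller degree, with median deviations of 0.15, 0.00 and −0.14. Unlike the naive genes, 11 of these 20 were lowest in culture 3 and 5 in culture 2, beside 31.4% and 31.9% of all genes.

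All 7 germ cell genes above 1 FPKM were highest in culture 1, where 30.3% of all genes were highest. Of the 7, 5 were lowest in culture 3 and 2 in culture 2, beside 31.4% and 31.9% of all genes. The synaptonemal complex gene Sycp3 had 11.4, 5.97 and 4.33 FPKM, the meiotic cohesin Stag3 7.08, 2.87 and 4.09, and Mael, which represses transposons, 3.70, 2.79 and 1.54. These 3 were at least 2-fold apart, beside 3.45% of all genes, a count that fell to 0 without culture 1, 2 without culture 2 and 1 without culture 3. The helicase gene Ddx4 (Vasa) had 5.71, 5.62 and 2.97 FPKM, low in culture 3 alone.

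Most fibroblast markers were lowest in culture 1. Of the 6 fibroblast genes above 1 FPKM, 5 were lowest in culture 1 and 5 were highest in culture 3, beside 36.7% and 35.8% of all genes. At least 2-fold apart were 4 of the 6, beside 3.45% of all genes. The collagen chain Col1a1 had 1.20, 2.58 and 2.77 FPKM, the proteoglycan Dcn 2.09, 3.96 and 4.79, and Acta2 19.6, 30.3 and 41.5. The surface protein Thy1 was the exception, at 2.39, 2.09 and 1.75. The intermediate filament Vim, from the adhesion list, had 25.4, 49.9 and 45.2. That count was 0 without culture 1, 4 without culture 2 and 2 without culture 3. These markers are also made by differentiating ESCs, and their part in the naive gene differences was not tested.

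All 19 cholesterol synthesis genes were lowest in culture 1, where 36.7% of all genes were lowest, and none was 2-fold apart. The median deviations were −0.18, 0.09 and 0.12. The enzyme Hmgcs1 had 85.7, 120 and 112 FPKM, and Idi1, with the widest range, 8.74, 14.1 and 10.5. Of the 12 fatty acid genes 8 were lowest in culture 1, 3 in culture 2 and 1 in culture 3, beside 36.7%, 31.9% and 31.4% of all genes. Fatty acid synthase, Fasn (75.7, 114 and 107), and the desaturase Scd2 (182, 291 and 261) were among the 8. Cpt1a, with the widest range of the list, was highest in culture 1 and lowest in culture 2 (5.08, 3.06 and 4.15). The β-oxidation enzyme Hadha was even (10.8, 10.8 and 10.9). In the BMP and Id list 13 of 17 genes were highest in culture 2, as were 33.9% of all genes, and of the 21 glycolysis genes 14 were, including Eno1 (246, 339 and 233) and Aldoa (282, 321 and 240). None of the genes in either list was 2-fold apart on log2(FPKM+0.1), although Id4 came to 2.03-fold without the pseudocount.

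**Figure D4:**
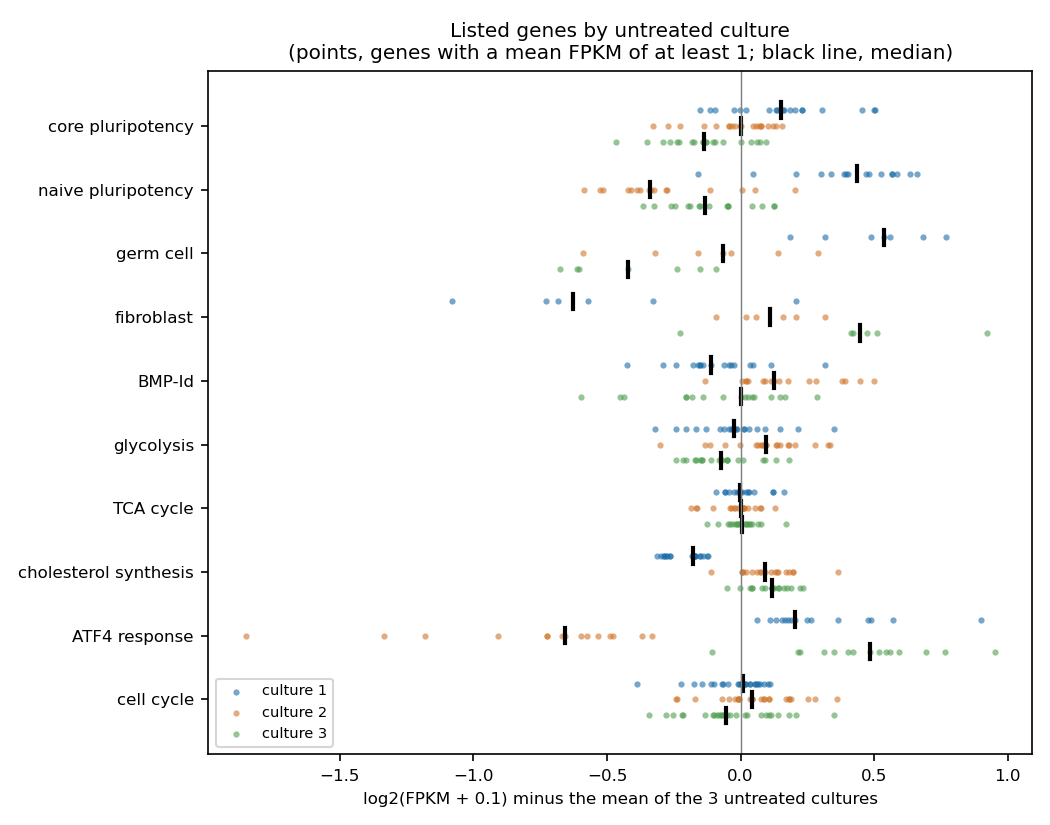
Log2(FPKM+0.1) of each listed gene in each untreated culture minus the mean of the 3 cultures, with 1 point per gene, colours for cultures and a black line at the median. The ATF4 response list lies at a median of −0.66 in culture 2, the naive list at 0.44 in culture 1 and the cholesterol list at −0.18 in culture 1, while the TCA cycle list lies at 0.00 in each.

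The 6 dox libraries, whose values do not enter the 2-fold rule, were used to ask whether libraries with the same number differed in the same way at the other time points. The gene lists were chosen with results of all libraries known, so their counts here are not independent of the choice. In limma's moderated F test of replicate number, with time point as the other term, 2480 of 11800 genes (21.0%) were called at an adjusted p of at most 0.05. Of the 407 genes 2-fold apart in the untreated cultures, 156 (38.3%) were called, and of the 214 longer and better read genes 125 (58.4%) were. Of the 407, 178 (43.7%) were highest in the library of the same number at 0, 18 and 24 h and 146 (35.9%) were lowest in the same number, beside 36.2% and 36.3% of all genes. Of the 214, a set limited after the data were seen, 139 (65.0%) were highest in the same number and 117 (54.7%) lowest. With edgeR on the recovered reads 41.2% of all genes were called, 168 (41.3%) of the 407 and 152 (71.0%) of the 214, so that the 407 taken whole were called about as often as all genes. The limma calls rest on the libraries numbered 1, and the other tools were not run with libraries left out. Without number 1 limma called 30 genes, and 7 of the 407, whereas it called 2463 without number 2 and 2211 without number 3.

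The naive and germ cell genes were among those called. In the naive list limma called 11 of 16 genes, edgeR 14 and DESeq2 11, beside 21.0%, 41.2% and 18.5% of all genes. The same number was highest at all 3 time points for 14 of the 16, beside 36.2% of all genes. Limma's adjusted p-values below are likely too small, since it made too many false calls on simulated data. Esrrb had 23.9, 14.4 and 14.4 FPKM at 18 h and 25.3, 14.5 and 15.4 at 24 h in numbers 1, 2 and 3 (limma's adjusted p=0.00304 for replicate number). Zfp42 had 129, 75.5 and 88.9, then 132, 77.9 and 95.0 (adjusted p=0.00226 by the same limma test). All 7 germ cell genes were called by each of the 3 tools, with Sycp3 at 8.03, 3.87 and 3.34, then 6.91, 4.50 and 2.82 FPKM (limma's adjusted p=0.0078). Number 1 was the highest for these 3 genes at each time point. Col1a2 was the reverse, with 1.07, 2.42 and 2.93, then 1.22, 2.94 and 3.82 FPKM (limma's adjusted p=0.00395), and limma called 4 of 6 fibroblast genes, edgeR 5 and DESeq2 4. Without the libraries numbered 1, limma's calls fell to 1 of the naive genes, 1 of the germ cell genes and 0 of the fibroblast genes.

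Of the ATF4 response genes limma called 5 of 15, edgeR 10 of 15 and DESeq2 5 of 15, beside 21.0%, 41.2% and 18.5% of all genes. Number 2 stayed the lowest at both dox times for 3 of 15, and 36.3% of all genes kept their lowest number. Chac1 had 1.66, 1.23 and 0.884 FPKM at 18 h and 1.27, 1.15 and 0.920 at 24 h (limma's adjusted p=0.0896). Asns had 45.2, 41.0 and 46.6, then 44.3, 39.9 and 43.5 FPKM (limma's adjusted p=0.0537), and Ddit3 1.97, 2.83 and 1.79, then 2.32, 2.58 and 2.94 (limma's adjusted p=0.391). The low value of number 2 at 0 h was not seen for Chac1 or Ddit3 at 18 or 24 h, where it was never the lowest. Trib3 was called (limma's adjusted p=0.0139), but with number 1 the highest at 18 h and 24 h. In the cholesterol list 2 of 19 genes were called by limma and 5 by edgeR, and 5 of 19 kept number 1 as the lowest at both dox times. The cholesterol counts are lower than those shares of all genes would give. Without numbers 1, 2 and 3 limma called 0, 3 and 4 of the 19, beside 0.254%, 20.9% and 18.7% of all genes, so the last count is not lower. The difference in calls between the lists was not tested.

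**Figure D5:**
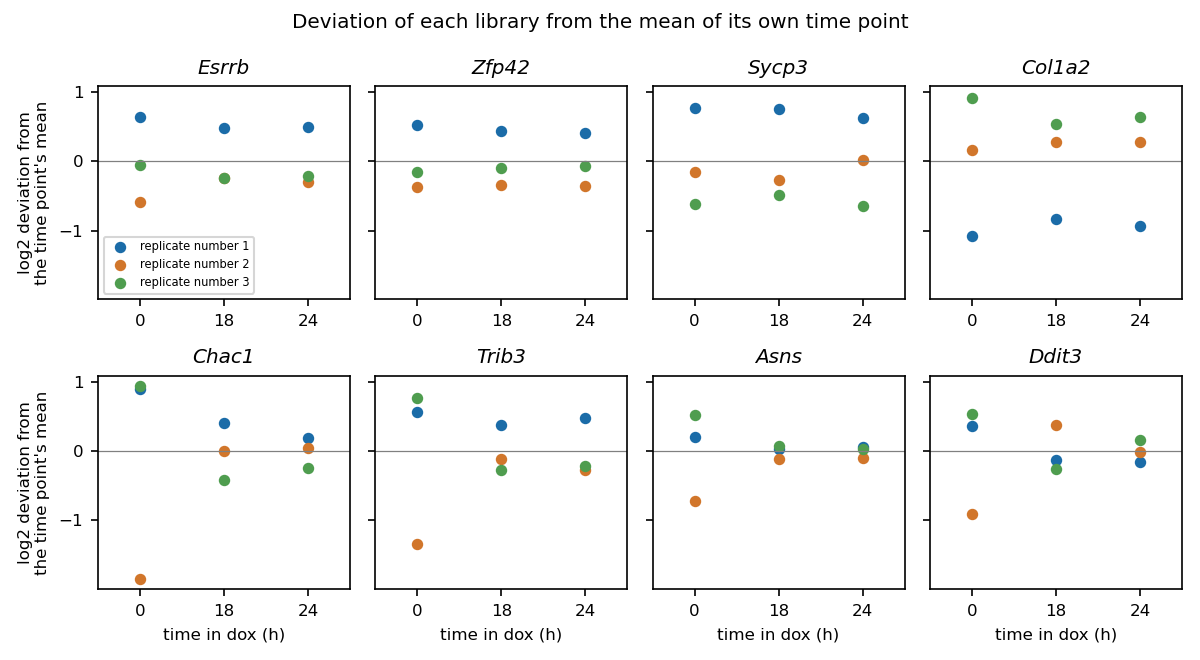
Log2(FPKM+0.1) of each library minus the mean of its own time point, for 8 genes at 0, 18 and 24 h in dox, with colours for the replicate number. Number 1 stays the highest for Esrrb, Zfp42 and Sycp3 and the lowest for Col1a2 at each time point, while number 2 lies far below the others for Chac1, Trib3, Asns and Ddit3 at 0 h and does not at 18 or 24 h.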

How the data were processed

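RNA was measured in 3 untreated and 6 dox libraries. The authors made strand-specific libraries of polyadenylated RNA, trimmed reads with cutadapt 1.9 (submitters' processing notes), aligned them with STAR to GRCm38 and deposited FPKM values for 47729 genes. For 19210 genes the authors also deposited a per-library signal scaled to an effective library size, their mean values, and log2 fold-changes, p-values and false discovery rates from edgeR 3.16.5, and these comparisons and means were not used. The annotation release and the handling of strand and multiply aligned reads in counting are not given in the sources used here.

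Reads per gene were recovered from the signal by dividing it by what 1 read was worth, and 100% of values came out whole within 0.02 of a read. They served for depths, the 100-read minimum and count tests. Levels are means±s.d. of FPKM over 3 libraries. Differences between cultures are the range of log2(FPKM+0.1) among genes whose mean FPKM was 1 or more, with 2-fold as the limit. They were tested only against counting noise (chi-square of the reads), an alternative. The design named edgeR had the files held counts. They held FPKM and the scaled signal, from which reads could be recovered, so edgeR could also be run. Limma 3.58.1 on FPKM was kept as the main test of replicate number in the 6 dox libraries (R 4.3.3, intensity trend, moderated F test, Benjamini-Hochberg adjustment over 11800 genes). edgeR 4.0.16 (quasi-likelihood test) and DESeq2 1.42.0 (likelihood ratio test) on recovered reads were alternatives, and the fits were tested on simulated data, where limma made more false calls than its adjusted p allows and edgeR did not. P-values of the replicate number tests set differences between numbers against the variation left after time point and number in the 6 dox libraries. They do not measure a spread between the untreated cultures.

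The genes named are the ESC markers, members of 35 gene lists, the 15 highest levels and the 20 widest ranges. The last 2 kinds needed at least 200 nt of exons, and the ranges at least 100 reads. List members were often the highest, lowest or most variable, and others were picked as examples without a fixed rule. The gene names Cyr61 and Ctgf stand for Ccn1 and Ccn2. The members and lists were chosen with earlier results of these data known. Coordinates and exons come from GENCODE M21, and promoters from RefSeq. Other steps ran in Python 3.11.15 (pandas 2.3.3). Some results on single genes are left out.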

Additional observations from a re-analysis of the deposited data

How the results depend on the processing

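The count of expressed genes kept within 1.5 times under each alternative tried. The count of 407 genes 2-fold apart became 178 with a pseudocount of 1, 2479 where the mean FPKM was 0.1 or more, 3462 with no filter, 96 where the mean FPKM was 5 or more, and 214 with at least 200 nt and 100 reads, a limit chosen after seeing the data. Leaving out a culture gave between 153 and 231. Median centring (411), the authors' effective library sizes (408) and a pseudocount of 0.01 (463) moved it little, and 289 of the genes were also beyond counting noise, as were 64.8% of all genes with recovered reads. In the dox libraries the 2480 calls of limma's F test by replicate number became 482 without the intensity trend, 4852 with edgeR and 2184 with DESeq2. With no filter limma called 0, with 5557 genes at an unadjusted p under 0.05. Leaving out a replicate number gave between 30 and 2463 calls. Of the 407 genes, 156 were called, and the count became 56 where the mean FPKM was 5 or more, 0 with no filter, 89 without the trend, and between 7 and 167 with a number left out. The cause of these changes was not tested, apart from fewer genes passing the stricter filters. Of the 20 widest ranges, 18 stayed at 2-fold or more with a pseudocount of 1 and 20 with effective library sizes. No paired analysis was possible because the untreated cultures form 1 group and the replicate number is itself the term tested. Of the 407, 184 had under 100 reads in all, so their ranges are the least precise.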
